A study of Bos taurus with 15 samples.

Results

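The redox and glutathione genes are those that remove peroxides and superoxide, keep protein thiols reduced, make and use glutathione, and store iron or bind metals. They were chosen by gene symbol, without a cut on their values but with earlier results of these data known. Taken were peroxiredoxins, glutathione peroxidases, superoxide dismutases, thioredoxins and thioredoxin domain proteins, glutaredoxins and quinone reductases. Glutathione transferases were taken where the symbol starts with GSTA, GSTK, GSTM, GSTO, GSTP, GSTT or MGST. Metallothioneins were taken where it starts with MT1 or MT2 and a letter. To these were added CAT, GCLC, GCLM, GSR, GSS, SRXN1, HMOX1, HMOX2, FTH1, FTL, KEAP1 and NFE2L2. The rule found 55 of the 9155 genes that the array names, on 75 probe sets. For 43 genes there was 1 probe set, and for the other 12 the probe set with the highest mean stands for the gene. A further 2 probe sets that name both DDT and GSTT2 were left out.

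Signals were measured on 15 Affymetrix Bovine Genome arrays from Bos taurus oocytes and embryos at 8 stages. Oocytes, morulae and blastocysts had 3 arrays each, 1-cell embryos (zygotes before the first division) had 2, and 2-cell, 4-cell, 8-cell and 16-cell embryos had 1 each. Oocytes came from aspirated ovarian follicles and were matured with LH, FSH and fetal calf serum, fertilised in vitro and cultured in SOF medium with albumin, amino acids and pyruvate. No other treatment is given. Arrays labelled oocyte precede fertilisation and embryo culture, so they shared at most collection and maturation with the embryos. The fertilisation drops also held penicillamine and hypotaurine, both of them antioxidants, with epinephrine and heparin. Maturation medium was equilibrated with carbon dioxide in air. The sources used here do not give the breed, the age of the animals, the number of oocytes or embryos behind each array, or whether the oocyte arrays were taken before or after maturation. Replicates are labelled biological.

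Cells make superoxide and hydrogen peroxide as by-products of respiration. Superoxide dismutases turn superoxide into hydrogen peroxide, and catalase, peroxiredoxins and glutathione peroxidases remove it. The peroxiredoxins are recycled by thioredoxin and thioredoxin reductase, and the glutathione peroxidases by glutathione, which glutathione reductase restores with NADPH. The mammalian oocyte stores glutathione during maturation and uses it after fertilisation, when the sperm chromatin is unpacked, and the early embryo relies on stored transcripts until its own genome becomes active. NFE2L2 (NRF2) is the transcription factor that turns on many of these genes, and KEAP1 is the adaptor that marks it for degradation.

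The arrays differed in quality within and between stages. Median signal ran from 39.7 to 62.1. Of the arrays, 9 carried signal from spiked-in bacterial control transcripts and 6 did not; the latter were oocyte 1, 1-cell 1, morulae 1 and 2 and blastocysts 1 and 2. The ratio of the middle to the 3' probe set of GAPDH was 0.0374 to 0.237 in oocytes, 0.100 to 0.625 in morulae and 0.339 to 0.643 in blastocysts. For cyclophilin the same ratio was 0.0141 to 0.102 in oocytes, 0.178 to 0.322 in morulae and 0.499 to 0.766 in blastocysts. Both measures of RNA length thus moved with stage. Oocytes and morulae overlapped for GAPDH but not for cyclophilin, and the part of RNA length in the results was not tested. Oocyte 3 lay at least 4-fold from both other oocyte arrays for 10.9% of all genes and for 6 members: GPX1, GCLC, MGST3, NQO2, TXN2 and TXNRD1. Morula 3 stood apart from its stage in the same way for 9.21% of all genes, with GSTA4, MT1A and FTL among the members. Blastocyst 3 did so for 6.14%, with TXNL1. The other oocyte, morula and blastocyst arrays did so for 0.0655% to 1.02%. All 7 oocyte markers, such as GDF9 and ZP2, were lower in morulae, where their summed signal was 759.8 to 1049 against 28462 to 46679.8 in oocytes, and 4 of 6 epithelial markers were higher. Of 19 measured cumulus and granulosa cell markers 1 was higher and 4 were lower in morulae, with a summed signal of 8796 to 11980.1 in oocytes and 14869.6 to 17806 in morulae. HAS2 had the largest rise in this sum, from 1310.3 to 1776 in oocytes to 8622 to 9257 in morulae. Stroma markers summed to 3942 on the 16-cell array and to at most 1676 elsewhere, on morula 3, where DCN read 1324. None of 5 passed the test, while 1 of 3 blood markers and 1 of 4 sperm markers were higher in morulae. The part of such cells in the results was not tested.

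From oocyte to morula the redox genes moved in both directions. A gene was called when limma, fitted to log2(signal + 16) with 1 mean per stage, gave an adjusted p under 0.05 after Benjamini-Hochberg adjustment over 24016 probe sets. By that rule 21 of the 55 members (38.2%) changed, 13 higher (23.6%) and 8 lower (14.5%) in morulae, while 34 did not pass. Over all named genes 26.3% were called, 17.7% higher and 8.63% lower. The median log2 change was -0.01 for the members and 0.14 for all genes. For all 21 the 3 morula arrays lay outside the range of the 3 oocyte arrays, as they did for 99.4% of all called genes. Called or not, 26 members (47.3%) and 43.2% of all genes had no overlap. The largest rises were those of GSTK1, TXN2, GLRX2, GLRX3 and GPX1, each over 4 on the log2 scale, and the largest falls those of GSTM3, MGST2 and NQO1. Each array measured whole oocytes or embryos, so fewer cells of a type and less RNA per cell cannot be told apart. A fold change is on the log2(signal + 16) scale, which understates the change of low signals.

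**Figure D1:**
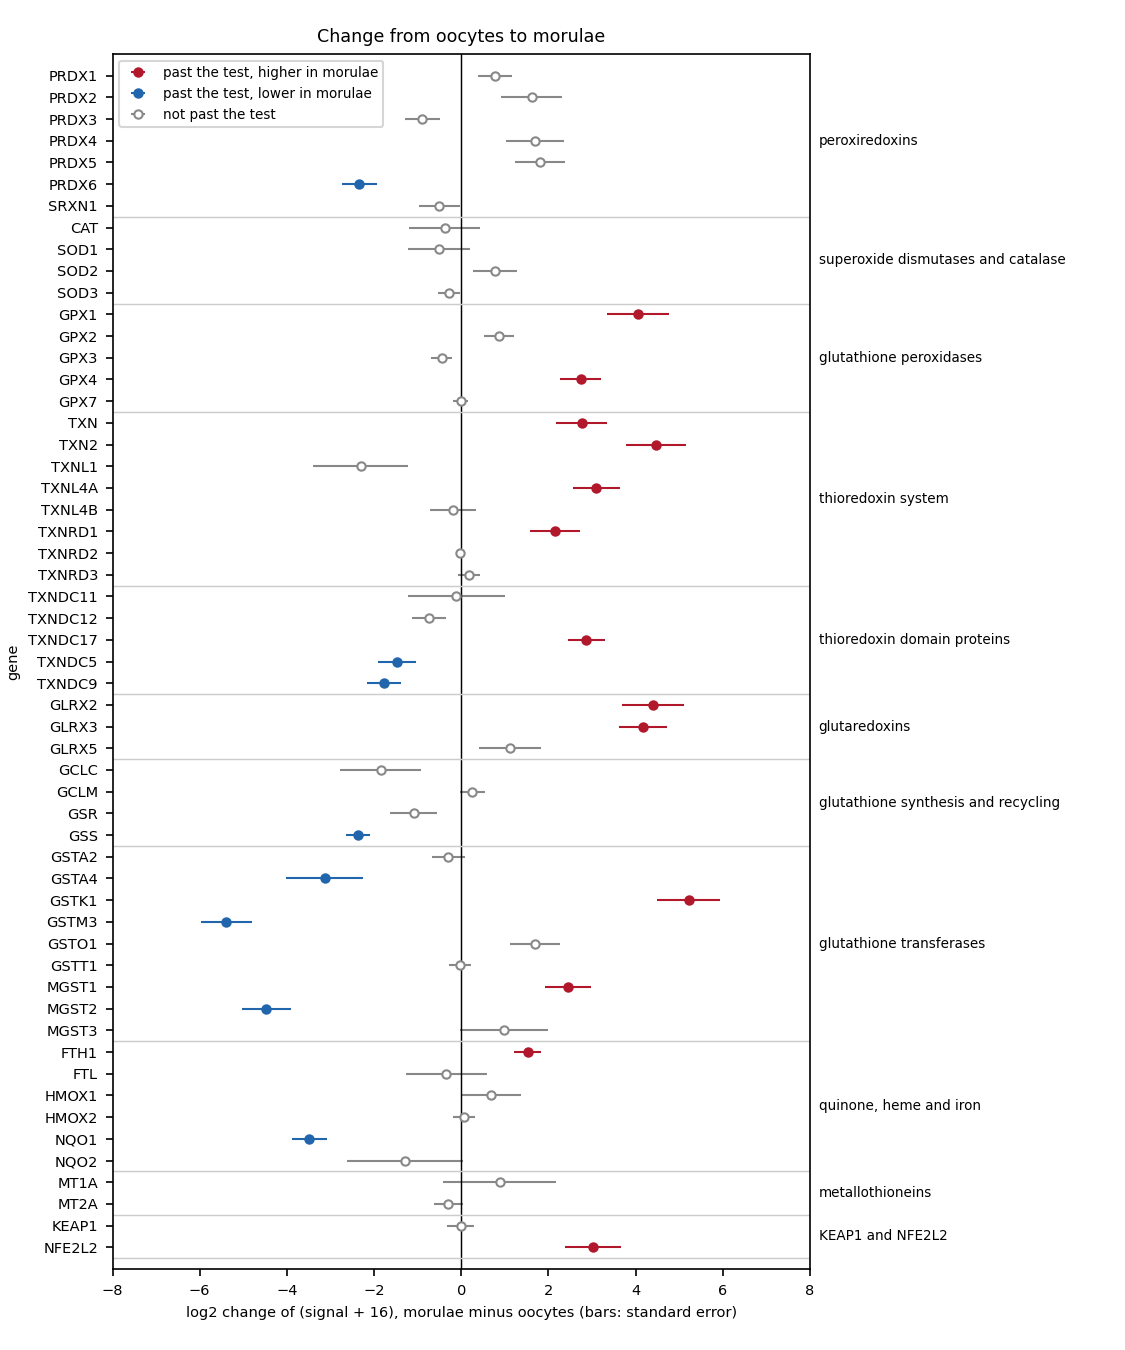
Log2 change of (signal + 16) from 3 oocyte to 3 morula arrays for the 55 members, ordered by role, with points for the estimate and bars for its standard error. Red points (13) were higher and blue points (8) lower in morulae by limma at an adjusted p under 0.05, and open points (34) did not pass.

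Of the glutathione peroxidases, which reduce peroxides at the expense of glutathione, 2 of 5 rose. GPX1, the general cytosolic enzyme, read 61.1, 72.6 and 385 in oocytes and 4161, 3099.9 and 951 in morulae. The third array was the highest oocyte and the lowest morula, and the groups still did not overlap. The change was 4.05 (SE 0.71, n = 3 and 3, adjusted p = 0.00308), and blastocysts read 3646, 2728 and 2730.1. A second GPX1 probe set of low signal did not follow it (log2 change -0.42, SE 0.27, adjusted p = 0.340). GPX4, which reduces oxidised lipids inside membranes, read 504, 404 and 1637 in oocytes and 5142, 4605 and 4496 in morulae. Its morula arrays were close together and all above the highest oocyte array, with a change of 2.74 (SE 0.47, adjusted p = 0.00272). The other 3 did not pass: GPX2, best known from gut epithelium, changed by 0.87 (SE 0.35, adjusted p = 0.114), and GPX3 and GPX7 lay under the median of every array.

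The thioredoxin system, which reduces protein disulfides, had 4 of 8 members higher and none lower. TXN, the cytosolic thioredoxin, read 377, 930.5 and 1656 in oocytes, 7117, 6032 and 4486 in morulae and 8489, 7825 and 9003 in blastocysts. Every morula and blastocyst array lay above every oocyte array, and the change to the morula was 2.76 (SE 0.59, adjusted p = 0.00861). TXN2, the mitochondrial thioredoxin, read 98.4, 58.9 and 646 in oocytes and 4387, 4171 and 3357 in morulae. Oocyte 3 was the high array of its stage, and the change was 4.47 (SE 0.69, adjusted p = 0.00155). TXNRD1, the cytosolic reductase that recharges thioredoxin with NADPH, read 979.9, 691 and 4062 in oocytes and 6536, 6755 and 5648 in morulae. Its oocyte arrays were widely spread, and the change of 2.15 (SE 0.57, adjusted p = 0.0249) lost its call with the compared stages alone (adjusted p = 0.0782). Leaving out any of oocytes 1 and 2 and morulae 1 and 2 also ended it, at an adjusted p of 0.0710 to 0.0878. TXNRD2 and TXNRD3, the mitochondrial and the testis-enriched reductase, lay under the median of every array and did not pass.

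TXNL4A, a spliceosome protein with a thioredoxin fold and not an antioxidant enzyme, read 13.1, 25.6 and 19.8 in oocytes and 351, 384 and 169 in morulae. The groups were far apart, with a change of 3.10 (SE 0.54, adjusted p = 0.00292). Its relative TXNL4B changed by -0.19 (SE 0.53, adjusted p = 0.856). TXNL1, a thioredoxin-like protein bound to the proteasome, read 7077, 6027 and 2746 in oocytes and 2369, 1208 and 315 in morulae. All morula arrays lay below the oocytes, but the change of -2.31 (SE 1.08, adjusted p = 0.176) did not pass. It passed with the replicate number as a block (adjusted p = 0.0205), with the spike-in class as a block (-2.98, adjusted p = 0.0225) and without the arrays numbered 3 (-1.94, adjusted p = 0.00636). On the arrays without spike-in signal, where oocyte 1 is the only oocyte array, the change was -2.05. The third morula and the third blastocyst array, at 315 and 313, were by far the lowest of their stages. A second TXNL1 probe set of low signal was flat (log2 change -0.07, SE 0.25, adjusted p = 0.883).

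Of 5 thioredoxin domain proteins, 1 rose and 2 fell. TXNDC17, a small cytosolic thioredoxin relative, read 686, 357 and 572 in oocytes and 3852, 4908 and 3171 in morulae, a change of 2.87 (SE 0.42, adjusted p = 0.00104). TXNDC9, which binds the chaperonin that folds actin and tubulin, read 7309.9, 6033 and 2669.9 in oocytes and 1672, 1136 and 1506 in morulae, a change of -1.78 (SE 0.39, adjusted p = 0.0107). Both differences left the groups without overlap. TXNDC5, a protein disulfide isomerase of the endoplasmic reticulum, read 299.6, 557 and 209 in oocytes and 129, 116 and 81.8 in morulae, a change of -1.48 (SE 0.44, adjusted p = 0.0398). It lost its call under more alternatives than any other of the 21: leaving out oocyte 1, oocyte 2 or any of the 3 morula arrays ended it (adjusted p = 0.0752 to 0.134), as did the compared stages alone (0.0941) and the mean over its probe sets (-0.76, adjusted p = 0.164). TXNDC11 and TXNDC12, also of the endoplasmic reticulum, changed by -0.11 (SE 1.12) and -0.74 (SE 0.40) and did not pass.

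The glutaredoxins, which use glutathione to reduce mixed disulfides or to carry iron-sulfur clusters, had 2 of 3 members higher. GLRX2, the mitochondrial form, read 129, 97.8 and 63.2 in oocytes, 1965, 1891 and 3157 in morulae and 2518, 3076 and 3303 in blastocysts. The change to the morula was 4.39 (SE 0.71, adjusted p = 0.00206). GLRX3, which handles iron-sulfur clusters in the cytosol, read 18.5, 40.9 and 27.9 in oocytes and 723, 799 and 828 in morulae, a change of 4.17 (SE 0.55, adjusted p = 6.27e-04). Neither gene had an oocyte array near the morulae. The second GLRX3 probe set read 95.5 to 135 in oocytes and 70.5 to 103 in morulae (log2 change -0.26, adjusted p = 0.617), so the rise rests on 1 of its 2 probe sets. GLRX5, the mitochondrial iron-sulfur cluster carrier, changed by 1.12 (SE 0.72, adjusted p = 0.329).

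Of the 4 genes of glutathione synthesis and recycling, 1 fell, 3 did not pass and none rose. GSS, the synthetase of the last step, read 144, 152 and 196 in oocytes, 20.1, 17.4 and 18.5 in morulae and 24.0, 14.6 and 16.6 in blastocysts. The arrays of each stage were tight, and the change to the morula was -2.37 (SE 0.28, adjusted p = 3.65e-04). GCLC, the catalytic subunit of the rate-limiting ligase, read 334, 138 and 3.02 in oocytes, 1623 and 2171 in 1-cell embryos, 17.7, 17.2 and 3.58 in morulae and 59.1, 10.6 and 7.86 in blastocysts. Oocyte 3 lay below every morula array, and the change of -1.85 (SE 0.92, adjusted p = 0.206) did not pass. Without oocyte 3 the change was -3.05 and passed (adjusted p = 0.00685). GCLM, its regulatory subunit, read 36.0, 27.7 and 12.8 in oocytes and 25.3, 30.6 and 41.4 in morulae, a change of 0.25 (SE 0.29, adjusted p = 0.611). GSR, which regenerates glutathione, read 4099, 3245 and 2277 in oocytes and 2154, 2097 and 674 in morulae. Its morula arrays lay below the oocytes, but the change of -1.09 (SE 0.54, adjusted p = 0.198) did not pass.

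The glutathione transferases among the members, which attach glutathione to reactive compounds, split: 2 of 9 rose, 3 fell and 4 did not pass. GSTK1, the kappa-class enzyme of mitochondria and peroxisomes, read 151, 46.3 and 33.0 in oocytes and 2114, 3550.3 and 3478 in morulae, a change of 5.22 (SE 0.72, adjusted p = 7.87e-04). Blastocysts at 1089, 467 and 3528 were more spread but still above the oocytes, while the other GSTK1 probe sets changed by 0.13 and 0.47 and did not pass. MGST1, a membrane enzyme of the endoplasmic reticulum and outer mitochondrial membrane, read 57.3, 67.2 and 26.0 in oocytes and 282, 382 and 334 in morulae, a change of 2.45 (SE 0.53, adjusted p = 0.00943). Its arrays did not overlap either.

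In the other direction, GSTM3, a mu-class transferase, read 879.5, 4479 and 3205 in oocytes, 58.6, 50.1 and 19.8 in morulae and 24.4, 16.2 and 17.5 in blastocysts. It had the largest fall of the 55 genes, -5.39 (SE 0.59, adjusted p = 2.23e-04). MGST2, a membrane enzyme that can also make a leukotriene, read 1014, 1761 and 617 in oocytes and 55.9, 26.3 and 19.4 in morulae, a change of -4.47 (SE 0.57, adjusted p = 5.01e-04). Both genes were low on every morula array. GSTA4, which conjugates aldehydes from oxidised lipids, read 6672, 4741 and 1732 in oocytes and 1118, 759 and 77.6 in morulae, a change of -3.13 (SE 0.88, adjusted p = 0.0331). The third array was the lowest of both stages, and the call was lost with the compared stages alone (adjusted p = 0.0959) or without oocyte 1 (0.113), oocyte 2 (0.0991) or morula 3 (0.0504, with a change of -2.03). GSTA2, GSTO1, GSTT1 and MGST3 changed by -0.30 to 1.69 and did not pass. GSTO1, the highest of these, had an adjusted p of 0.0688, or 0.0454 with the replicate block.

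Of the peroxiredoxins and sulfiredoxin, 1 of 7 passed, and its probe sets disagreed. PRDX6, the peroxiredoxin that works with glutathione, read 4256, 4284 and 5670.0 in oocytes and 853, 766 and 1161 in morulae on its highest probe set, a change of -2.34 (SE 0.40, adjusted p = 0.00268). Another PRDX6 probe set read 109, 123 and 115 in oocytes, 2244, 1339.8 and 129 in morulae and 3368, 4325 and 2033 in blastocysts. There the first 2 morulae and all blastocysts were high, a change to the morula of 2.54 (SE 0.86, adjusted p = 0.0688). The remaining PRDX6 probe sets changed by -0.20 and 0.18, and the mean over the gene's probe sets by 0.04 (adjusted p = 0.959), so no direction of PRDX6 holds across its probe sets.

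Among the other peroxiredoxins, PRDX1 and PRDX2, both abundant cytosolic enzymes, did not pass in the morula. PRDX1 read 5005, 10280.4 and 4749 in oocytes, 14145, 13534 and 6533 in morulae and 15182, 18746 and 12849.9 in blastocysts. PRDX2 read 968, 3200.3 and 7378 in oocytes, 13954, 12889 and 3744 in morulae and 12982, 14447 and 12052 in blastocysts. In both, morula 3 fell among the oocyte arrays while every blastocyst lay above them. Changes to the morula were 0.78 (SE 0.39, adjusted p = 0.202) for PRDX1 and 1.62 (SE 0.70, adjusted p = 0.142) for PRDX2, which passed without oocyte 3 (2.30, adjusted p = 0.0318). PRDX4, of the endoplasmic reticulum, read 207, 549 and 898 in oocytes and 2258, 2369 and 699 in morulae. PRDX5, found in mitochondria and peroxisomes, read 712, 982 and 1387 in oocytes and 6354, 5144 and 1301 in morulae. Here too the third morula was the one array inside the oocyte range, with changes of 1.69 (adjusted p = 0.111) and 1.80 (adjusted p = 0.0539). Without morula 3 both passed, at 2.26 for PRDX4 (adjusted p = 0.0404) and 2.51 for PRDX5 (adjusted p = 0.00291), and PRDX5 also passed with the replicate number as a block (adjusted p = 0.0489). Morula 3 was, however, the only morula array with spike-in signal, while oocytes 2 and 3 both carried it. Without morula 3, stage and spike-in class therefore cannot be fully told apart. For PRDX1, PRDX2, PRDX4 and PRDX5 alike, morula 3 read between oocytes 2 and 3. PRDX3, the mitochondrial peroxiredoxin, read 2494, 2197 and 1876 in oocytes and 1364, 1456 and 795 in morulae, below the oocytes but short of the test (log2 change -0.89, SE 0.41, adjusted p = 0.167). A second PRDX3 probe set did not follow it, with 322, 581 and 209 in oocytes and 518, 229 and 669.9 in morulae (log2 change 0.33, SE 0.75, adjusted p = 0.816). SRXN1, which repairs overoxidised peroxiredoxins, changed by -0.50 (SE 0.47, adjusted p = 0.523).

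None of the 3 superoxide dismutases nor catalase passed. SOD1, the cytosolic enzyme, read 2506, 2380.3 and 730.1 in oocytes, 4375 and 3669 in 1-cell embryos, 2614, 587 and 967 in morulae and 3229, 3821 and 982 in blastocysts. SOD2, the mitochondrial enzyme, read 4712, 4276 and 1758 in oocytes, 6891, 4670.4 and 5535 in morulae and 8935, 6491 and 2790.2 in blastocysts. CAT, the peroxisomal catalase, read 1923, 3336 and 763 in oocytes, 2497, 1774 and 497 in morulae and 1999, 6017 and 1023 in blastocysts. In all of them the oocyte and morula arrays overlapped, and all 15 arrays read above their own median. Changes to the morula were -0.51 (SE 0.71) for SOD1, 0.77 (SE 0.51) for SOD2 and -0.38 (SE 0.81) for CAT, with adjusted p of 0.680, 0.340 and 0.803. SOD3, the secreted form, lay under every array's median.

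**Figure D2:**
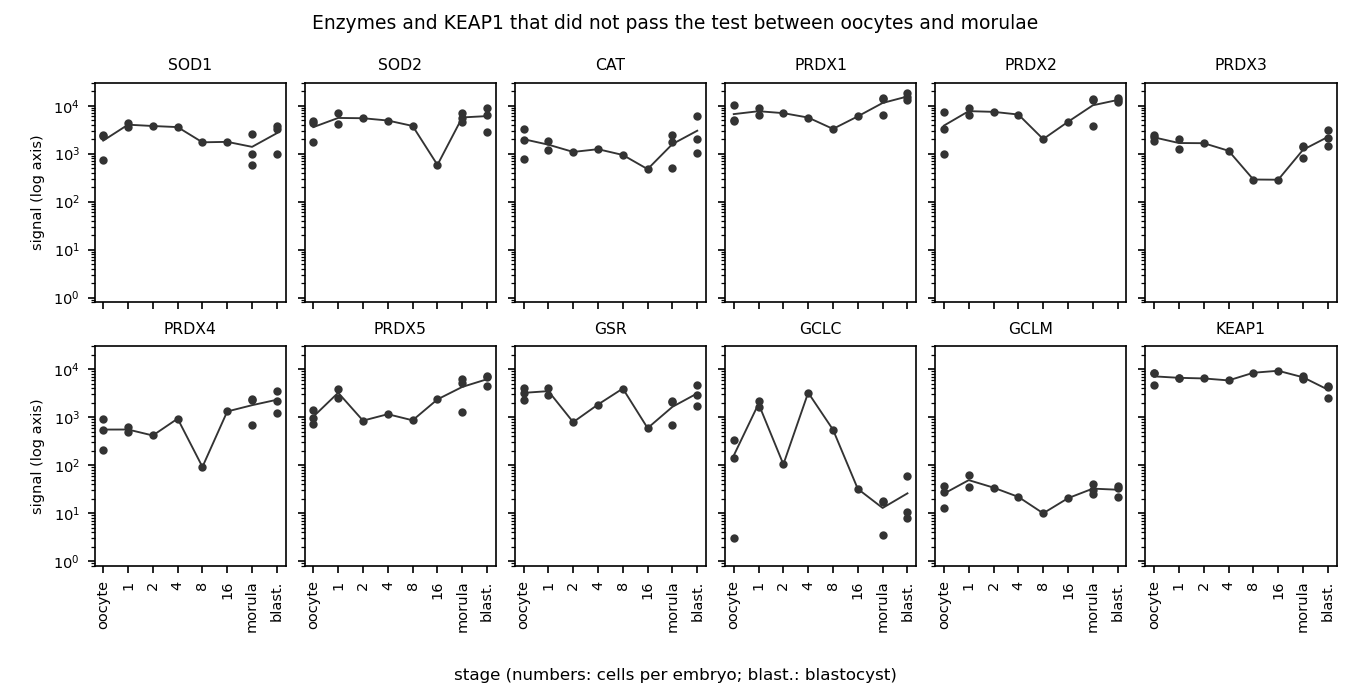
Signal (log axis) by stage for 12 members that did not pass between oocytes and morulae: SOD1, SOD2, CAT, PRDX1 to PRDX5, GSR, GCLC, GCLM and KEAP1. Points are arrays and lines join the stage means; GCLC spans 3.02 to 3236 and is highest on the 4-cell array, while SOD2 drops to 584 on the 16-cell array alone.

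Of the quinone, heme and iron genes, 1 of 6 rose and 1 fell. NQO1, which reduces quinones and is a classical NFE2L2 target, read 1240.4, 1614 and 1007 in oocytes, 128, 94.3 and 76.4 in morulae and 144, 202 and 96.5 in blastocysts, a change to the morula of -3.49 (SE 0.40, adjusted p = 2.87e-04). FTH1, the ferritin heavy chain that oxidises iron for storage, read 2611, 4299 and 6732 in oocytes and 13224, 13039 and 10616 in morulae, a change of 1.53 (SE 0.31, adjusted p = 0.00686). The groups of both genes were apart. FTL, the ferritin light chain, read 736, 7136 and 1079.9 in oocytes and 2501, 2377 and 471 in morulae, a change of -0.34 (SE 0.92, adjusted p = 0.850). Oocyte 2 and morula 3 lay at least 4-fold from the other arrays of their stages. NQO2 read 8.71, 39.0 and 1852 in oocytes, the third array far above the others, and changed by -1.29 (SE 1.34, adjusted p = 0.568). HMOX1 and HMOX2, the heme oxygenases, changed by 0.68 (SE 0.68) and 0.06 (SE 0.25). The metallothioneins MT1A and MT2A did not pass either, and MT1A spanned 25.6 to 2315 over the arrays, with overlap between all replicated stages.

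NFE2L2, the regulator, read 99.7, 198 and 567 in oocytes, 1921, 1257 and 3114 in morulae and 2877, 5537 and 3543 in blastocysts. The morulae and blastocysts all lay above the oocytes, and the change to the morula was 3.02 (SE 0.64, adjusted p = 0.00828). A second NFE2L2 probe set was flat (log2 change -0.19, SE 0.42, adjusted p = 0.814), and the mean over both missed the threshold (1.42, adjusted p = 0.0747). KEAP1 read 8133, 4583 and 8514 in oocytes and 6612, 6351 and 7374 in morulae on its highest probe set, a change of -0.01 (SE 0.31, adjusted p = 0.989). Its second probe set, chosen for mention after its values were seen, read 16.2, 9.50 and 9.33 in oocytes, 105 and 30.5 in 1-cell embryos, 364, 203, 1444 and 1659 from the 2-cell to the 16-cell array, and 974, 734 and 1253 in morulae. That is a change of 5.16 (SE 0.66, adjusted p = 5.40e-04), while its remaining probe set changed by -0.30. The level of KEAP1 thus differed by probe set, and the mean over them rose by 1.62 (adjusted p = 0.0150).

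**Figure D3:**
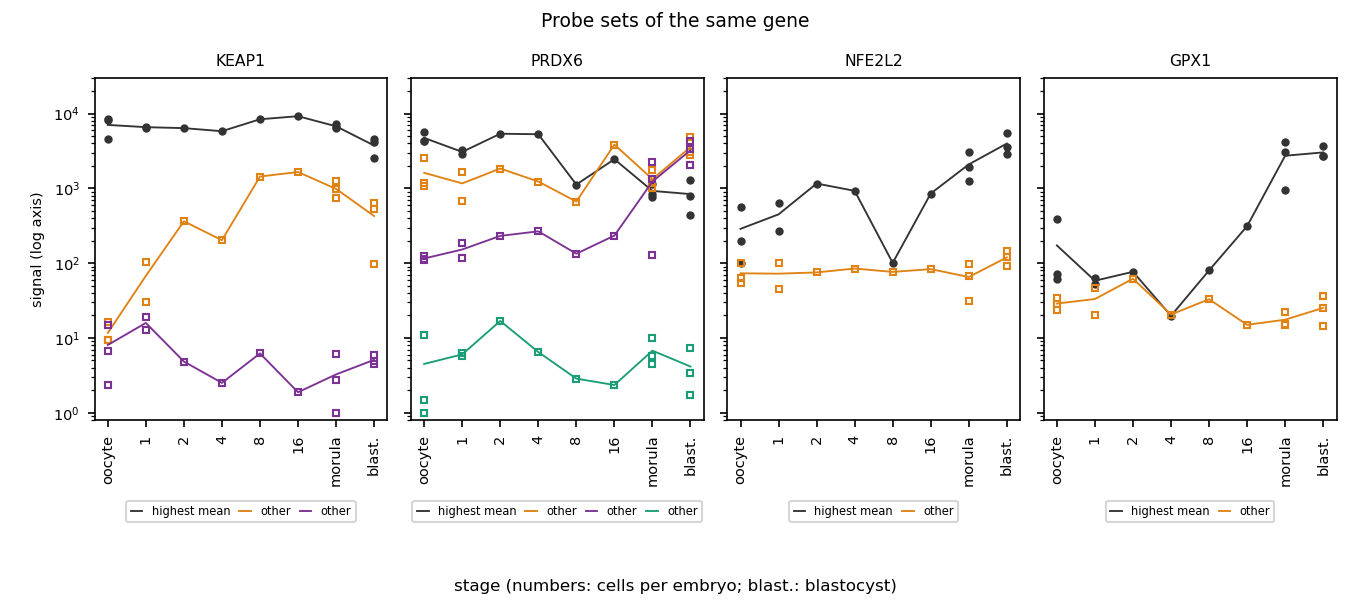
Signal (log axis) by stage on every probe set of KEAP1, PRDX6, NFE2L2 and GPX1; black marks the probe set with the highest mean, colours the others, points are arrays and lines join stage means. In KEAP1 a second probe set reads 9.33 to 16.2 in oocytes and 734 to 1253 in morulae under a flat highest probe set, and in PRDX6 1 probe set rises while the highest falls.

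The 1-cell embryos show what is present before the first division. Between oocytes and 1-cell embryos 1 of the 55 members passed (1.82%), against 0.350% of all genes (0.284% higher and 0.0655% lower). GLRX3 read 445 and 1101 in 1-cell embryos against 18.5, 40.9 and 27.9 in oocytes, a change of 4.02 (SE 0.62, n = 2 and 3, adjusted p = 0.0379). It stayed between 723 and 1365 on the arrays from the 2-cell embryo to the morula. This call is weak: it was lost under median centring (adjusted p = 0.0615), with a pseudocount of 64 (0.0651), without oocyte 1 (0.111), oocyte 2 (0.0806) or 1-cell 2 (0.250), with the compared stages alone (0.482), and for the mean of its probe sets (1.93, adjusted p = 0.135). At an unadjusted p under 0.05 there were 5 members (9.09%), adding FTH1, GCLC, PRDX5 and TXNL4A, close to the 8.92% of all genes. FTH1 read 9523 and 10092 in 1-cell embryos, above the oocytes (log2 change 1.21, SE 0.35, adjusted p = 0.272). GCLC, at 1623 and 2171, changed by 4.23 (SE 1.03, adjusted p = 0.172), with the oocytes between 3.02 and 334. PRDX5, at 3948 and 2506, changed by 1.65 (SE 0.64, adjusted p = 0.523).

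Stages with 1 array have no replicate check, so their values are a description. RNA length also differed among them. The middle to 3' ratio of cyclophilin was 0.562, 0.0229, 0.0115 and 0.475 from the 2-cell to the 16-cell array. For GAPDH it was 0.237, 0.0935, 0.0571 and 0.134. The cyclophilin ratio of the 8-cell array was the lowest of all arrays. The part of RNA length in the differences between these arrays was not tested. Several members read low on some of the 2-cell to 8-cell arrays. TXN read 49.0, 412 and 191 on them and then 4056 on the 16-cell array. TXNDC17 read 36.6, 20.6 and 56.9 and then 4041, and GLRX2 read 29.2, 17.5, 294 and 3001. NFE2L2 read 1163, 929, 101 and 855 in the same order. On the 8-cell array 21 members (38.2%) lay below the oocyte range and 6 (10.9%) above it, beside 30.0% and 28.6% of all genes. On the 16-cell array 13 (23.6%) lay below and 20 (36.4%) above, beside 25.4% and 40.4% of all genes.

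The step from the 8-cell to the 16-cell array moved members in both directions. At least 4-fold higher on the 16-cell array were 14 of 55 members, against 18.9% of all genes, and at least 4-fold lower were 4, against 6.03%. Those higher were GLRX2, GLRX5, GPX4, GSTK1, GSTO1, MGST1, NFE2L2, NQO2, PRDX4, TXN, TXN2, TXNDC11, TXNDC17 and TXNL4A, and those lower were GCLC, GSR, MGST2 and SOD2. GPX4 went from 1226 to 5599, TXN2 from 106 to 3002 and GSTK1 from 141 to 5355. MGST2 went from 1127 to 62.9 and SOD2 from 3785 to 584. The stroma markers stood apart on this same 16-cell array, and their part in these shifts was not tested. Both ratios of RNA length were lower on the 8-cell than on the 16-cell array, and median signal was 42.1 against 54.2. The part of these differences in the shifts was not tested either.

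Of the 13 members higher in morulae, 11 had passed the midpoint between the oocyte and the morula mean on the 16-cell array, against 76.4% of the 1619 genes that rose. Only GPX1, at 313, and TXNL4A, at 84.3, had not. On the 8-cell array 2 had passed it, FTH1 and GLRX3, against 26.2% of the genes that rose. Of the 8 members lower in morulae, 6 lay past the midpoint on the 8-cell array (GSTA4, GSTM3, NQO1, PRDX6, TXNDC5 and TXNDC9) and 3 on the 16-cell array (GSTA4, MGST2 and NQO1), against 34.8% and 52.2% of the 790 genes that fell. GSTM3, at 194 and then 672, PRDX6, at 1127 and then 2459, TXNDC5, at 136 and then 303, and TXNDC9, at 2437 and then 3496, read higher again on the 16-cell array. GSS lay at 158 to 211 from the 1-cell to the 8-cell arrays and read 93.3 on the 16-cell array. These shares describe single arrays and carry no test.

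**Figure D4:**
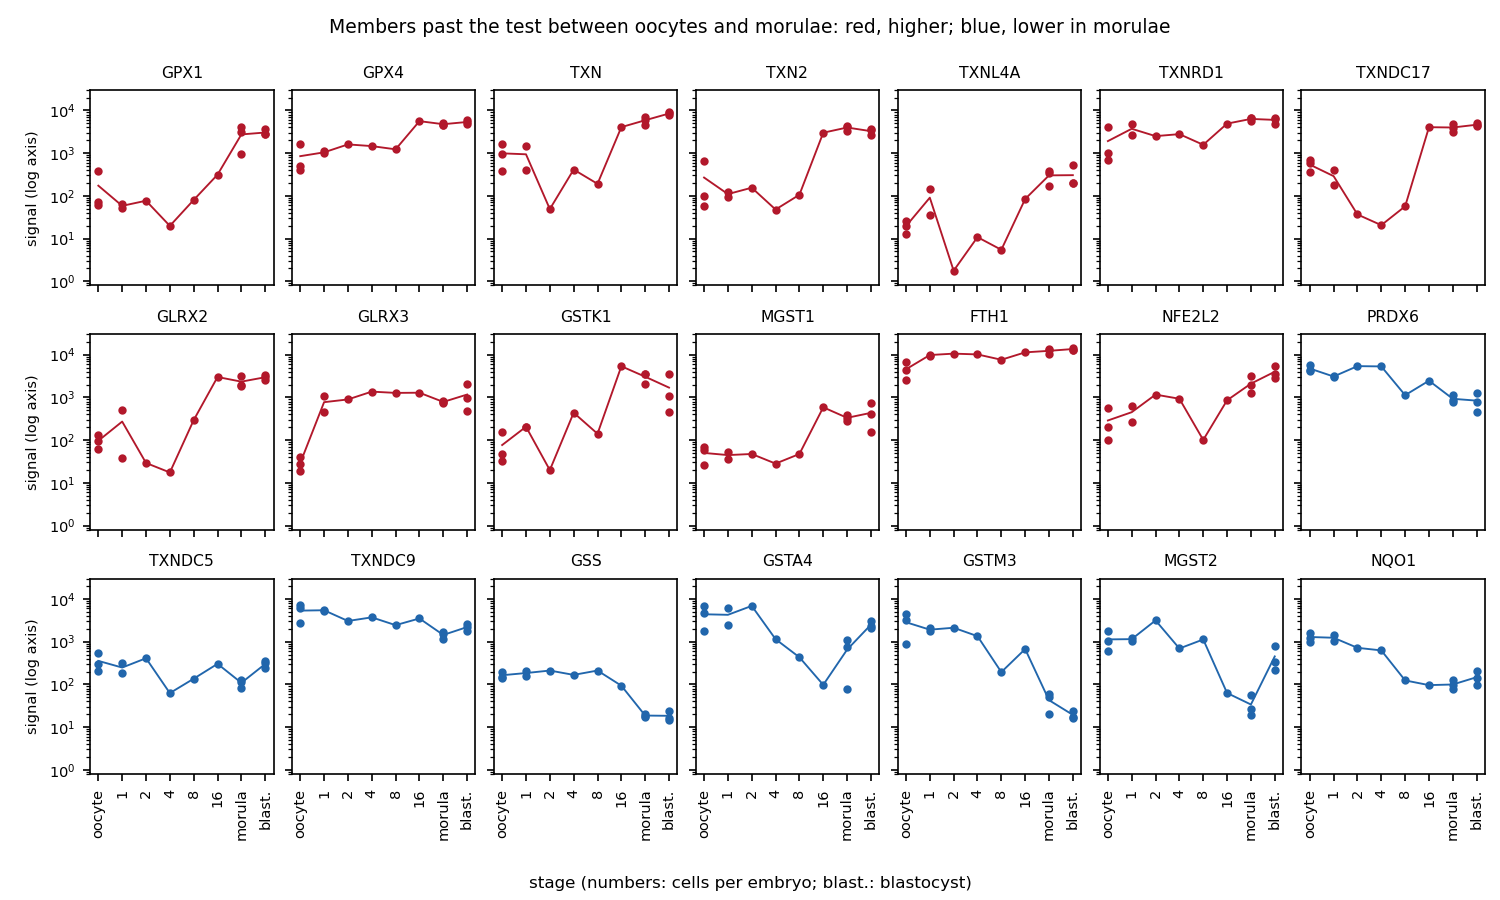
Signal (log axis) by stage for the 21 members past the test between oocytes and morulae, red for the 13 higher and blue for the 8 lower in morulae; points are arrays and lines join the stage means. Most red lines step up between the 8-cell and the 16-cell array, while GLRX3 is already at 445 and 1101 in 1-cell embryos.

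From morula to blastocyst no member passed by limma, against 0.240% of all genes (22 of 9155, 0.164% higher and 0.0765% lower). At an unadjusted p under 0.05 there were 5 members (9.09%) and 848 genes (9.26%). The median log2 change was 0.18 for the members and -0.04 for all genes. MGST2 came closest, with 223, 331 and 802 in blastocysts against 55.9, 26.3 and 19.4 in morulae, a change of 3.10 (SE 0.57, adjusted p = 0.0834). GSTA4 read 2134, 2330.2 and 3035 in blastocysts, above all morula arrays, with a change of 2.52 (SE 0.88, adjusted p = 0.473). TXNDC5 read 238, 346 and 318 there, a change of 1.35 (SE 0.44, adjusted p = 0.423). These 3 genes were lower in morulae than in oocytes, and their blastocyst arrays again lay apart from the morulae. Both comparisons use the same morula arrays, so the fall and the return are not independent. The other 2 went down: KEAP1 read 4191, 2533 and 4529 in blastocysts (-0.89, SE 0.31, adjusted p = 0.472) and TXNL4B 148, 166 and 126 (-1.40, SE 0.53, adjusted p = 0.526).

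Blastocysts set against the same oocyte arrays gave 19 called members (34.5%), 15 higher (27.3%) and 4 lower (7.27%), against 26.8%, 17.8% and 8.95% of all genes. The morula and blastocyst comparisons share their oocytes, so they are not independent. Called in both were 17 members, with GSTA4, MGST2, TXNDC5 and TXNDC9 called in the morula alone and PRDX1 and PRDX5 in the blastocyst alone. PRDX5 read 6765, 7282 and 4475 in blastocysts, a change from the oocyte of 2.59 (SE 0.57, adjusted p = 0.0107). PRDX1 changed by 1.30 (SE 0.39, adjusted p = 0.0415), a call lost without oocyte 1, oocyte 3 or any blastocyst array (adjusted p = 0.0559 to 0.131), with the spike-in class as a block (1.18, adjusted p = 0.0594) and with the compared stages alone (0.0596). PRDX4, at 2.12, and PRDX2, at 2.20, came just short, with adjusted p of 0.0507 and 0.0522. With the replicate block, PRDX4 (adjusted p = 0.0459), TXNDC9 (-1.17, 0.0419), TXNL4B (-1.59, 0.0373) and KEAP1 on its highest probe set (-0.90, 0.0345) passed as well. The second KEAP1 probe set was higher in blastocysts than in oocytes (3.66, SE 0.66, adjusted p = 0.00374). Of the 4 lower in blastocysts, GSTM3 changed by -6.06 (SE 0.59), NQO1 by -3.02 (SE 0.40), GSS by -2.39 (SE 0.28) and PRDX6, on its highest probe set, by -2.59 (SE 0.40). Another PRDX6 probe set was higher in blastocysts (4.56, SE 0.86, adjusted p = 0.00474), and the mean over the gene's probe sets changed by 0.80 (adjusted p = 0.178). Whether a member's change differed between the 2 stages is the morula to blastocyst comparison above, in which none passed.

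**Figure D5:**
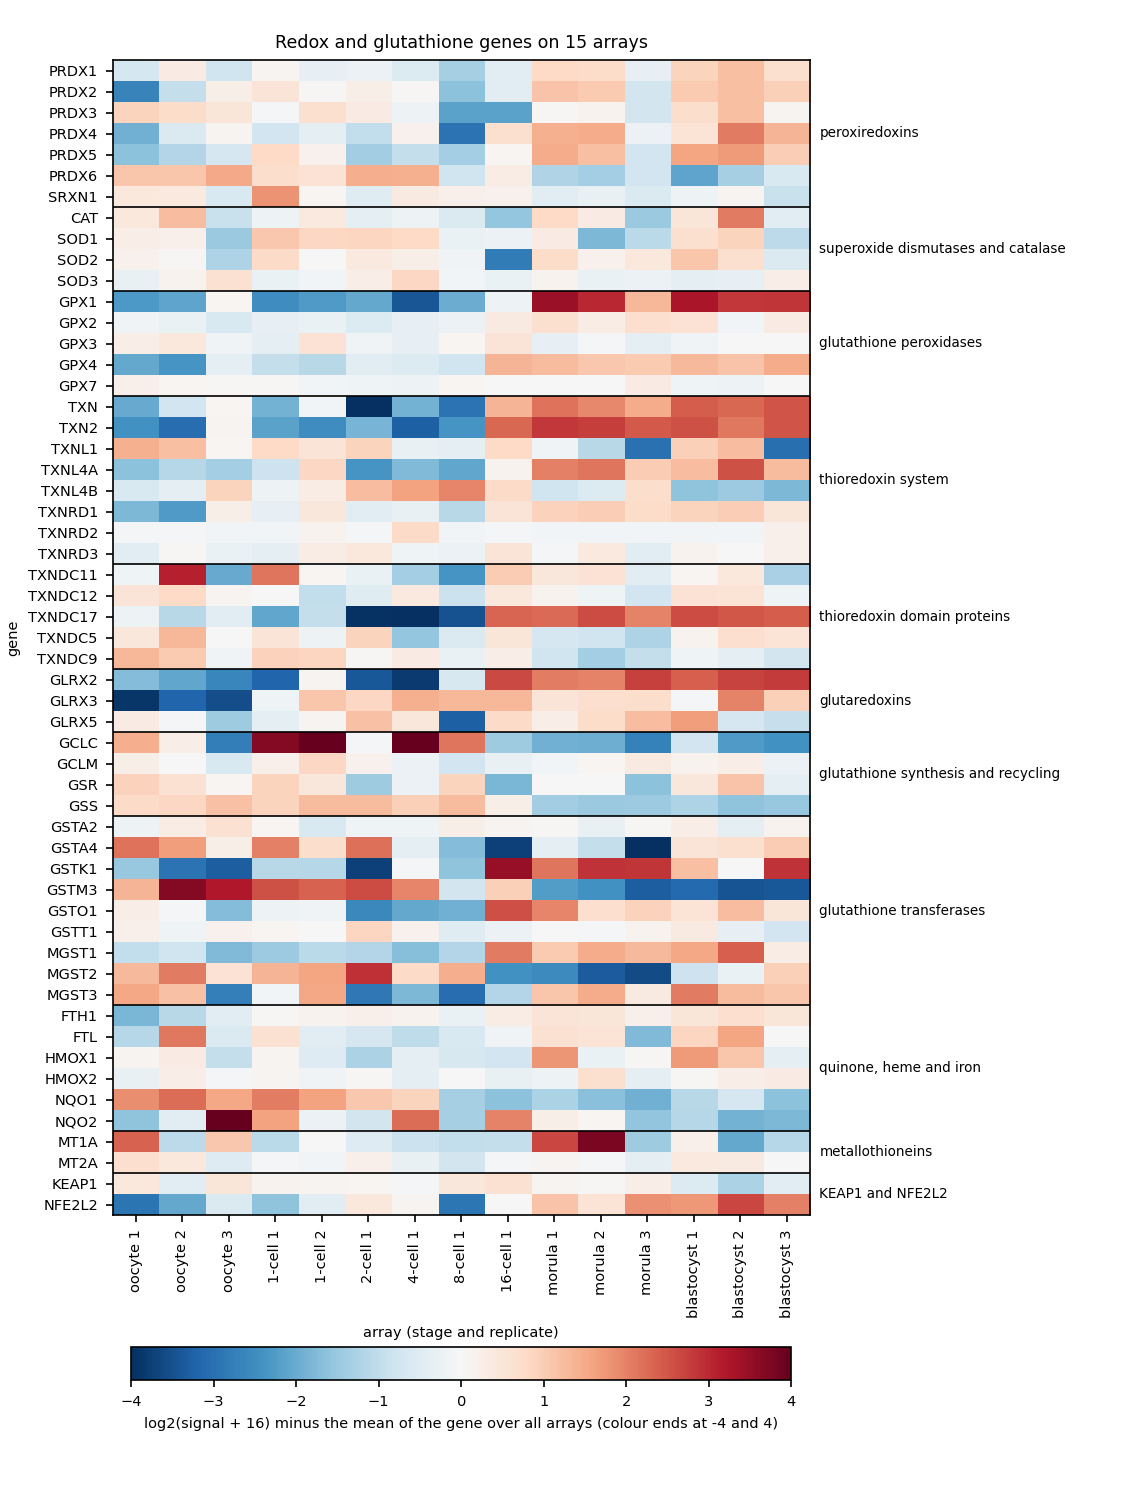
Log2(signal + 16) of the 55 members on all 15 arrays, each gene minus its own mean over the arrays, ordered by role and stage; red is above and blue below that mean, with colours ending at -4 and 4. GPX1, TXN, TXN2, TXNDC17 and GLRX2 are red in morulae and blastocysts, and GSTM3, MGST2, GSS and NQO1 are blue in morulae. On the 16-cell array TXN, TXN2, TXNDC17 and GLRX2 are already red, and MGST2 and NQO1 already blue.

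The neighbouring pathway, a list of 91 genes that supply NADPH or cysteine, use selenium, handle iron, copper or aldehydes, fold disulfide-bonded proteins, or regulate NFE2L2, had 66 measured genes. In morulae against oocytes 21 were higher, 6 lower and 39 did not pass, so 40.9% were called beside 26.3% of all genes, with a median log2 change of 0.73. From oocyte to 1-cell only OSER1, an oxidative stress responsive gene, passed (2.48, SE 0.39, adjusted p = 0.0430), and from morula to blastocyst none did. ME1, cytosolic malic enzyme, read 1715, 2477 and 529.6 in oocytes and 20.3, 8.63 and 6.11 in morulae, a change of -5.62 (SE 0.57, adjusted p = 1.57e-04), and NNT, the mitochondrial transhydrogenase, changed by -4.27 (SE 0.52, adjusted p = 3.90e-04). TKT, transketolase of the pentose phosphate pathway, rose by 5.26 (SE 1.41, adjusted p = 0.0268), from 43.5, 11.9 and 3382 to 7042, 6608 and 6713. Oocyte 3 lay near the morulae there, and the TKT call was lost without oocyte 1, oocyte 2 or any morula array (adjusted p = 0.0594 to 0.0978). BLVRA, which reduces biliverdin, the product of the heme oxygenases, rose by 4.96 (SE 0.42, adjusted p = 6.15e-05). ETHE1, a mitochondrial sulfur dioxygenase, rose by 4.53 (SE 0.58, adjusted p = 5.37e-04). SESN1, a sestrin, fell by 4.34 (SE 0.59, adjusted p = 7.28e-04) on its highest probe set, but its others, at -1.58 and -1.09, did not pass, and neither did a second NNT probe set at -0.42.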

How the data were processed

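The authors deposited 1 table of signal intensity, 1 value per probe set and array on a linear scale, from RNA amplified in 3 rounds per the labels' protocols. The sources used here do not state how probes were summarised or arrays scaled. The values lie between 0.39 and 20787.9, with 2.56% at exactly 1.00, and without detection calls a low signal has no stated background. After 112 control probe sets were left out, log2(value + 16) of 24016 probe sets was tested with limma 3.58.1 in R 4.3.3 (eBayes with trend, 1 mean per stage over all 15 arrays) and Benjamini-Hochberg adjustment at 0.05; the procedure was tested on simulated data. P-values reflect only the scatter among these arrays, whose number limits the precision. Names came from the platform's annotation (13292 probe sets with 1 symbol, 86 with several, 10638 with none), and all 55 members were in the RefSeq table of ARS-UCD2.0. A gene's highest probe set by mean log2 value stands for it.

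Members, roles and lists were chosen with earlier results of these data known. Values per array are given for every member past the test in the 1-cell, morula or blastocyst-to-morula comparison and for a fixed set of main enzymes, and up to 6 pathway genes are named by largest change. Deviations from the stage mean correlated weakly between arrays of the same number (0.142, 0.107 and 0.182 for oocytes with morulae, 0.195, 0.106 and 0.306 for morulae with blastocysts, 0.278, 0.276 and 0.285 for oocytes with blastocysts) but not throughout for oocytes with 1-cell embryos (0.183 and -0.115). These values do not settle whether the numbers mark pairs. The main fit did not pair arrays, and the number was used as a block only in an alternative. The labels do not say what a number stands for. Alternatives were median centring or quantile normalization, leaving out low probe sets, pseudocounts of 1 and 64, no variance trend, the compared stages alone, a replicate block, the spike-in class as a block or alone, leaving out arrays, and the mean over a gene's probe sets. Promoter and protein sequences were not used here, and no sequence is shown. Figures were drawn with matplotlib 3.10.9.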

Additional observations from a re-analysis of the deposited data

How the results depend on the processing

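Of the 21 members called between oocytes and morulae, 16 kept their call and direction under all 17 alternatives other than the spike-in classes taken alone; the others were GSTA4, TXNRD1, TXNDC5, NFE2L2 and PRDX6. Of the 19 called between oocytes and blastocysts 16 did, the others being PRDX1, TXNRD1 and PRDX6. Quantile normalization and median centring moved the median log2 change of all probe sets in morulae from 0.04 to -0.06 and -0.14, and the 13 higher and 8 lower members kept call and direction under both. Leaving out arrays 1 at a time gave 18 to 23 called members in morulae and 17 to 22 in blastocysts, and leaving out the arrays numbered 3 gave 26 and 24. With the spike-in arrays alone, which leave too few residual degrees of freedom to pass, 0 members and 0 genes were called in either comparison, though all 21 and all 19 kept their sign. The arrays without spike-in signal hold only oocyte 1 of the oocytes, beside morulae 1 and 2 and blastocysts 1 and 2. No count of calls is given for these 2 comparisons there, and all 21 and all 19 members kept their sign. With the spike-in class as a block 23 members were called in morulae, gaining GSR and TXNL1. In blastocysts there were 19, gaining TXNDC9 and losing PRDX1.

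With the replicate block, 24 members were called in morulae, gaining GSTO1, PRDX5 and TXNL1, and 23 in blastocysts, gaining TXNDC9, TXNL4B, KEAP1 and PRDX4; no call was lost, and the 1-cell and blastocyst-to-morula counts stayed at 1 and 0, while the genes called in the 1-cell comparison went from 32 to 16.

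The 1-cell count of 1 member went to 0 under median centring, with a pseudocount of 64, with the compared stages alone, with either spike-in class alone and with the mean of probe sets, to 0 to 1 without single arrays, and to 4 without the arrays numbered 3. The 32 genes called there became 21 under quantile normalization and under median centring, 58 without the variance trend, 0 with the compared stages or either spike-in class alone, 257 without the arrays numbered 3, 15 with the mean of probe sets, and 2 to 79 without single arrays. For morula to blastocyst, 22 genes became 7 with a pseudocount of 1, 35 with 64, 0 with the compared stages or either spike-in class alone, 45 without the arrays numbered 3, and 2 to 34 without single arrays, and members stayed at 0 throughout. Signs turned for FTL (1.71) and NQO2 (1.75) in morulae on the arrays without spike-in signal alone, and with the mean of probe sets for KEAP1 (1.62) and PRDX6 (0.04) in morulae and PRDX6 (0.80) in blastocysts; the cause was not tested.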
